A study of Prunus avium with 27 samples.

Results

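The 227 genes described here held a high RNA level in sweet cherry flower buds from October to January and kept nearly the same mean level on all 3 collection dates. They were chosen from the RNA values themselves, as genes with an identifier that begins with PRUPE, at least 150 TPM, a unit of relative transcript level, in all 9 RNA libraries, and a range of log2(mean TPM + 1) over the 3 dates under 0.3. They were 227 of 28087 PRUPE genes (0.808%) and of 29449 identifiers in all, and are called the high steady genes. Of the 797 PRUPE genes at 150 TPM or more in every library, 28.5% met the limit on the range. The other 570 are called the high changing genes, and 2147 genes with a range under 0.3 and at least 10 TPM in every library, but below 150 TPM in at least 1, are called the lower steady genes.

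Buds of the cultivar 'Burlat', a sweet cherry (Prunus avium) grown in an orchard in the south-west of France, were collected on 21 October 2014, 5 December 2014 and 27 January 2015. The submitters describe the buds of October and December as dormant and those of January as non-dormant. In any comparison with January, the date and the dormancy state therefore cannot be told apart. RNA was sequenced in 3 libraries per date, and trimethylation of histone H3 on lysine 4 (H3K4me3) was measured by chromatin immunoprecipitation in 2 libraries per date, numbered 2 and 3. No treatment or genetic change separates the groups, and separate trees are not stated for the libraries of a date, so any p-value here reflects how these libraries varied.

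Dormancy lets a bud of a temperate fruit tree pass the winter without growth, and bud break follows after enough cold. Genes that are transcribed at a high and even level are often those of basic cell functions, and such genes serve as references when other genes are measured. H3K4me3 marks the first nucleosomes of transcribed genes, and its level there usually goes with transcription. TPM gives the share of a gene among all transcripts of a library after correction for length, so a steady TPM is a steady share and not a steady number of molecules. In whole buds, fewer cells of a type and less RNA per cell cannot be told apart.

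The identifiers are not paired with gene names in the sources used here, and 0 of them matched the 37283 RefSeq genes of sweet cherry, so functions, sequences and tissue markers are not given. No source used here names the genome build, and positions stand as the deposited tables give them. Strands given below were not read from an annotation. They were inferred from which end of a locus fitted an H3K4me3 region.

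Each RNA library held between 17105 and 18097 identifiers at 1 TPM or more. The median H3K4me3 signal over the 15360 regions tested was 167 and 174 in the October libraries, 181 and 196 in the December libraries, and 192 and 159 in the January libraries. The 2 January libraries thus differed in level, and many counts of H3K4me3 calls below depended on single libraries.

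As a share of all RNA, the high steady genes made up between 8.16% and 8.63% of the TPM of each library. Their median level per library lay between 247 and 272 TPM. The mean TPM of a gene over the 9 libraries reached from 162 to 2241, with a median of 259 and quartiles of 205 and 399. A mean level under 200 TPM was found for 52 genes, 200 to 300 TPM for 80, 300 to 500 TPM for 57, 500 to 1000 TPM for 26 and 1000 TPM or more for 12. These 12 genes held 18.7% of the summed TPM of the high steady genes. The high changing genes had a median of 344 TPM and a highest mean of 7023 TPM.

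**Figure D1:**
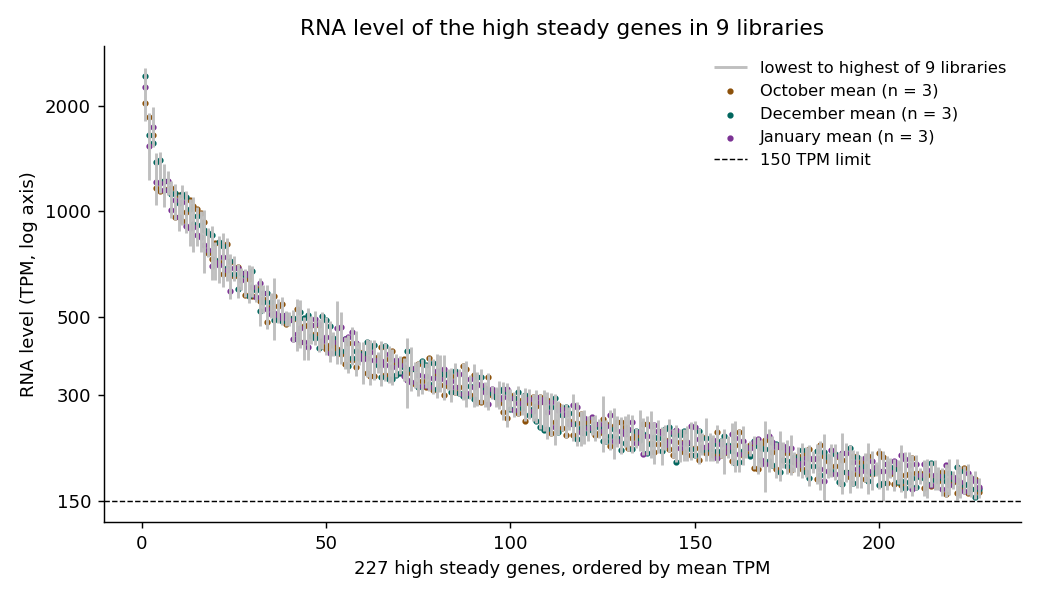
RNA level in TPM (log axis) of the 227 high steady genes, ordered by mean TPM. Points are the means of 3 libraries at each date, grey lines reach from the lowest to the highest of the 9 libraries, and the dashed line is the limit of 150 TPM; 12 genes average 1000 TPM or more.

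PRUPE_ppa022729mg, on the minus strand of scaffold 6 from 1424481 to 1424806, had the highest mean level of the set. It had 2138, 1898 and 2061 TPM in October, 2278, 2455 and 2569 TPM in December, and 1807, 2469 and 2494 TPM in January. All December libraries lay above all October libraries, while the range of the January libraries overlapped both. The range of the date means was 0.26 log2 units. The locus is only 325 bp long.

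PRUPE_ppa012332mg, on the plus strand of scaffold 8 from 16206355 to 16207105, followed with a mean of 1679 TPM. Its levels were 1904, 1841 and 1819.8 TPM in October, 1435, 1807 and 1697 TPM in December, and 1540.3, 1231 and 1838 TPM in January. All December libraries lay below all October libraries, the January libraries overlapped both, and the spread reached a standard deviation of 303 TPM in January, against 43.9 TPM in October (n = 3 each).

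PRUPE_ppa008227mg, on the minus strand of scaffold 1 from 23842619 to 23845559, averaged 1655 TPM. It had 1729.8, 1623 and 1615 TPM in October, 1528, 1608 and 1562 TPM in December, and 1693, 1555 and 1986 TPM in January. All December libraries lay just below all October libraries, and the January libraries enclosed those of October.

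The next 5 genes by level were PRUPE_ppa019619mg, PRUPE_ppa012643mg, PRUPE_ppa012933mg, PRUPE_ppa005779mg and PRUPE_ppa007588mg, with means of 1253, 1250.1, 1198, 1179 and 1097 TPM. PRUPE_ppa012933mg averaged 1219 ± 17.6 TPM in October, 1222 ± 137 TPM in December and 1154 ± 109 TPM in January (SD, n = 3). PRUPE_ppa005779mg averaged 1162 ± 13.6, 1154 ± 70.2 and 1221 ± 86.2 TPM on the same dates. For both genes the date means differed by less than the spread between libraries of December or January. PRUPE_ppa012643mg stood nearest to the limit among these 5, at a range of 0.293, with 1143 ± 24.9 TPM in October, 1400.1 ± 79.6 TPM in December and 1207 ± 47.7 TPM in January.

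The genes with the smallest range over the dates had mean levels between 162 and 493 TPM. PRUPE_ppa013186mg, on scaffold 1 from 25472418 to 25474969, had the smallest range of all, 0.0128. It had 230.2, 207 and 217 TPM in October, 212, 222 and 224 TPM in December, and 244, 195 and 222 TPM in January. Its date means were 218, 219 and 220.2 TPM, while the January libraries enclosed all others. PRUPE_ppa007062mg, on scaffold 2 from 9565795 to 9569564, joined a small range with a small spread: 493, 487 and 516 TPM in October, 478, 509.8 and 483 TPM in December, and 499.8, 472 and 499 TPM in January. The libraries of the 3 dates overlapped, and the range of the means was 0.0246. PRUPE_ppa002840mg, PRUPE_ppa013507mg and PRUPE_ppa009337mg came next, with ranges of 0.0322, 0.0407 and 0.0413 and mean levels of 177, 213 and 162 TPM.

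Most of the high steady genes stood closer to the limit than these. The range of the date means reached from 0.0128 to 0.2998 with a median of 0.206, and it was under 0.1 for 36 genes and 0.2 or more for 118. Over the 9 single libraries the range had a median of 0.335 log2 units and went up to 0.671, and 214 genes kept all 9 libraries within 0.5. The genes just inside the limit on the range were PRUPE_ppa002911mg, PRUPE_ppa010026mg and PRUPE_ppa012718mg, at 0.2998, 0.299 and 0.298. Those just outside it were PRUPE_ppa014233mg, PRUPE_ppa001886mg and PRUPE_ppa011555mg, at 0.3009, 0.3013 and 0.3015. Just inside the limit on the level, the lowest library of PRUPE_ppa006795mg, PRUPE_ppa001010mg and PRUPE_ppa007328mg held 150.1, 150.4 and 150.8 TPM, and just outside it those of PRUPE_ppa019151mg, PRUPE_ppa010710mg and PRUPE_ppa012670mg held 149.3, 148.8 and 148.1 TPM. Neither limit fell in a gap of the values.

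A gene can be inside the limit and still separate the dates cleanly. PRUPE_ppa010026mg, on scaffold 2 from 9515060 to 9519573, had 238, 237 and 236 TPM in October, 194, 194 and 193 TPM in December, and 235, 246 and 234 TPM in January. The 3 December libraries lay below all others. At the other extreme, PRUPE_ppa026145mg, a locus of 255 bp on scaffold 4, had the largest spread within dates, a standard deviation of 0.206 log2 units, with 185, 253 and 229.6 TPM in October, 193, 201 and 239 TPM in December, and 159, 212 and 201 TPM in January. Its libraries overlapped on all dates.

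The standard deviation within dates had a median of 0.0693 log2 units for the high steady genes. It was 0.076 for the high changing genes, 0.119 for the lower steady genes and 0.159 for all PRUPE genes tested. The rule set no limit on this spread, but it uses the same libraries, and the numbers are a description. The plot of change against spread shows that the limit on the range runs through a dense part of the high genes.

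**Figure D2:**
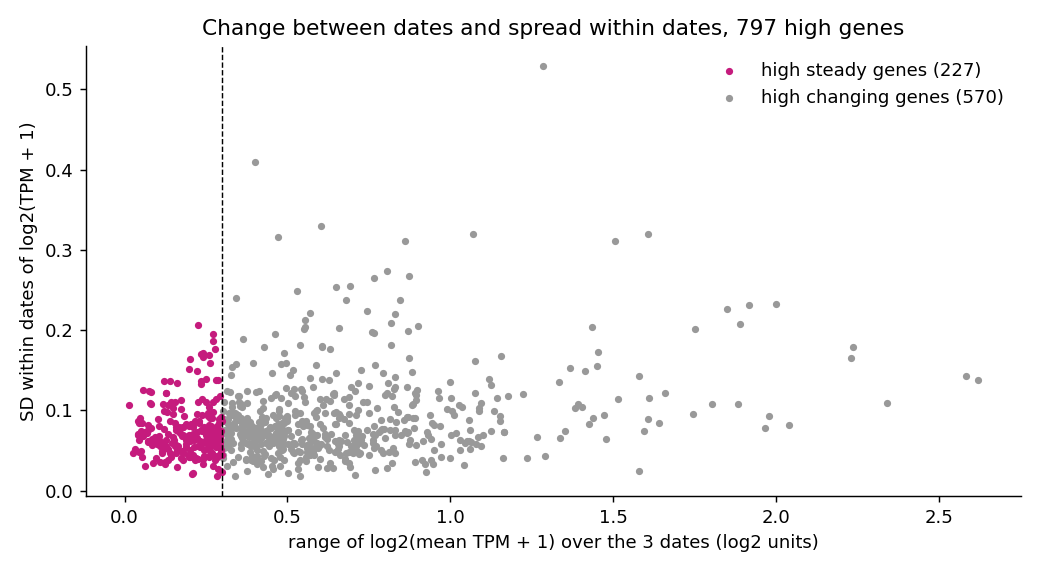
Range of log2(mean TPM + 1) over the 3 dates (horizontal axis, log2 units) against the standard deviation of log2(TPM + 1) within dates (vertical axis) for the 797 genes at 150 TPM or more in all 9 libraries. The 227 high steady genes lie left of the dashed limit at 0.3 and the 570 high changing genes right of it, with similar spreads within dates (medians of 0.0693 and 0.076).

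No date stood out as the peak of the set. The mean was highest in October for 71 genes, in December for 73 and in January for 83, and lowest in October for 95, in December for 78 and in January for 54. Spearman's rho between 2 libraries of the same date lay between 0.969 and 0.986 (median 0.974, 9 pairs), and between libraries of different dates between 0.932 and 0.959 (median 0.945, 27 pairs). The pairs share libraries, and the limit on the range holds the order nearly fixed between dates, so these values only describe the set.

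Small changes could still pass a test across all genes. limma with Benjamini-Hochberg adjustment over 18384 genes called 88 of the 227 between December and October (46 higher and 42 lower in December), against 60.5% of all genes tested. Between January and December it called 53 (34 higher and 19 lower in January), against 32.9% of all genes. With library medians aligned the split turned to 13 higher and 18 lower in January. Over all genes it turned from 3397 higher and 2659 lower to 3137 higher and 3306 lower. Between January and October it called 71 (44 higher and 27 lower in January), against 61.1% of all genes. The rule chose the genes on these contrasts, so the counts describe which of the changes below 0.3 exceeded the spread between libraries, and no comparison with the share over all genes is drawn. The January and December count fell to 32 without December replicate 3 (4917 of all genes). The January and October count fell to 45 without October replicate 3 (9929 of all genes).

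The loci of the high steady genes had a median length of 2913 bp (255 to 10923 bp). The median was 2407 bp for the high changing genes and 3442 bp for the lower steady genes. It was 2553 bp for the PRUPE genes tested for RNA and 2055 bp for all PRUPE genes. Of the high steady loci, 5 were under 500 bp. By the strand inferred from the H3K4me3 regions, 116 lay on plus and 106 on minus, and for 5 the strand could not be resolved. Scaffold 1 held 55 of them, scaffold 6 held 36, scaffold 7 held 31, scaffold 4 held 28, scaffold 2 held 22, scaffold 8 held 21, scaffold 5 held 16 and scaffold 3 held 15, and 1 lay on each of scaffolds 9, 10 and 12. Among scaffolds 1 to 8, the share of PRUPE genes that were high and steady ranged from 0.508% on scaffold 3 to 1.07% on scaffold 7.

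Of the 227, 8 were next to another one in gene order, in 4 pairs. Whether this is more or fewer than for other genes was not tested. PRUPE_ppa008459mg and PRUPE_ppa005779mg lay on the same strand of scaffold 7 with 1074 bp between them, at mean levels of 173 and 1179 TPM. PRUPE_ppa012544mg and PRUPE_ppa025584mg lay on scaffold 2 with 174 bp between them, at 411 and 314 TPM. PRUPE_ppa007732mg and PRUPE_ppb024585mg, at 390.4 and 422 TPM, lay on scaffold 1 with the second locus inside the first. Together 8 high steady loci overlapped another locus, and for 4 of them the other one held at least 10 TPM on average. These were PRUPE_ppa004059mg, PRUPE_ppa011596mg, PRUPE_ppa007732mg and PRUPE_ppb024585mg, and their levels are uncertain, since how reads were divided between overlapping loci, and whether by strand, no source used here states.

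The H3K4me3 libraries were not used to choose these genes. The deposited table has 1 value per region, and most regions cover 500 bp upstream and 1500 bp downstream of a gene's start. Of the 227 genes, 196 had such a region of their own, 31 shared a region with at least 1 other gene (in all cases but 1 a longer region), and 0 had none. The shared regions are left out of the comparisons, because the signal cannot be divided between their genes. Their median signal was 315, and they include the starts of PRUPE_ppa022729mg and PRUPE_ppa013186mg.

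Nearly all high steady genes carried the mark at their start. The mean signal over the 6 libraries had a median of 279 and quartiles of 212 and 340, and 183 of the 196 genes were above 100 in all 6 libraries. The median was 266 for 490 high changing genes, 216 for 1887 lower steady genes and 150 for 15799 PRUPE genes tested for RNA. Only 8 of the 196 (4.08%) had a mean signal under 100, and this share was 9.59% of the high changing genes, 18.5% of the lower steady genes and 39.6% of the PRUPE genes tested.

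**Figure D3:**
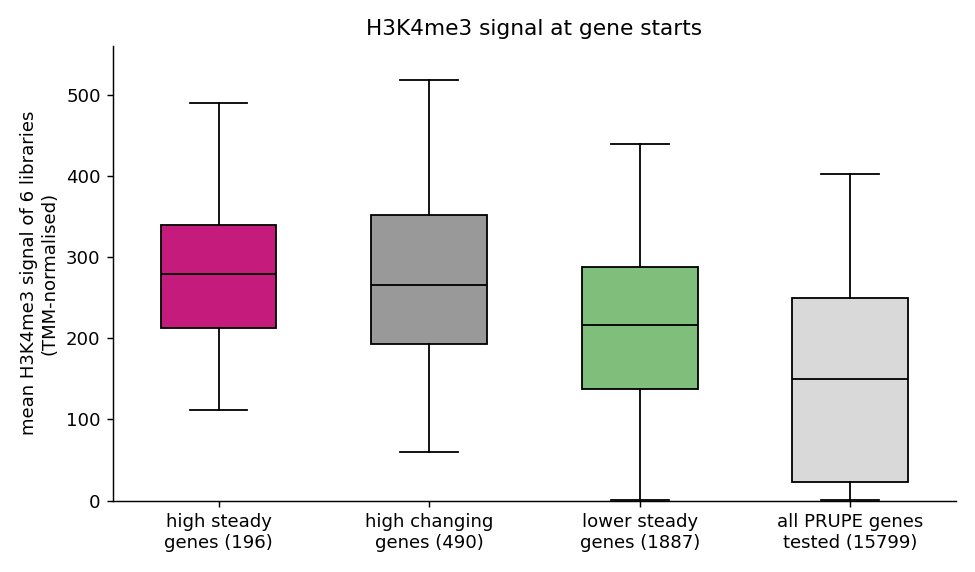
Mean H3K4me3 signal of 6 libraries (TMM-normalised by the authors) at starts with a region of their own. Boxes give the quartiles and the median, and whiskers the 5th and 95th percentiles; the high steady genes have a median of 279 and few low values, against 150 for all PRUPE genes tested.

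The highest signals were at PRUPE_ppa007297mg, PRUPE_ppa004224mg and PRUPE_ppa001010mg, with means of 588, 578 and 559 and RNA levels of 657, 1046 and 193 TPM. PRUPE_ppa007297mg, with its region on scaffold 7 from 19941278 to 19943278, had signals of 578 and 558 in October, 559 and 599 in December, and 639 and 595 in January. PRUPE_ppa001010mg, on scaffold 1 from 45510841 to 45512841, had 504 and 463 in October, 575 and 613 in December, and 636 and 561 in January. Their signals were close to each other, while their RNA levels of 657 and 193 TPM were not.

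Within the set, the order by signal had little in common with the order by RNA. Across the 196 genes, Spearman's rho between the mean TPM and the mean signal was 0.057, and across the 15799 PRUPE genes tested it was 0.554. This low value was shared with the high changing genes, at 0.023 (490 genes), and the lower steady genes had 0.216 (1887 genes). All these values are over genes of the same libraries, and that of the 196 covers a narrow window of RNA levels by choice. Locus length had a rho of 0.09 with the signal and −0.21 with the TPM among the 196.

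PRUPE_ppa003008mg, PRUPE_ppa012282mg and PRUPE_ppa003493mg were exceptions. PRUPE_ppa003008mg had 178, 214 and 224 TPM in October, 239.6, 218 and 231 TPM in December, and 203, 227 and 187 TPM in January. Its region, on scaffold 6 from 4166159 to 4168159, stood at the lowest value of the table in all 6 libraries. Such a region holds no signal above the minimum of the table, and no source used here states whether a control was subtracted. PRUPE_ppa012282mg, on scaffold 1 with its region from 2152942 to 2154942, also stood at the lowest value in all 6 libraries, at a mean RNA level of 183 TPM. PRUPE_ppa003493mg, on scaffold 2 with its region from 5515722 to 5517722, did so in 5 libraries and had a signal of 6.91 in December replicate 3, at 236 TPM. The regions next to that of PRUPE_ppa003008mg had mean signals of 0.153 at a distance of 4865 bp and 278 at 16729 bp. Those next to PRUPE_ppa012282mg had 2.4 and 48.8, and both next to PRUPE_ppa003493mg stood at 0.153.

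The signal at the high steady genes was lowest in October. In deposited units, the median over the 196 genes was 251 and 254 in the October libraries, 293 and 303 in the December libraries, and 317 and 269 in the January libraries. All December and January libraries lay above both October libraries. Because all regions also differed in level between libraries, the same medians were taken relative to that of all regions tested, for the 193 genes whose region passed the filter of a signal of 10 in 2 libraries. On the log2 scale they stood 0.59 and 0.55 above in October, 0.69 and 0.64 above in December, and 0.73 and 0.76 above in January. On this scale the 3 dates did not overlap.

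**Figure D4:**
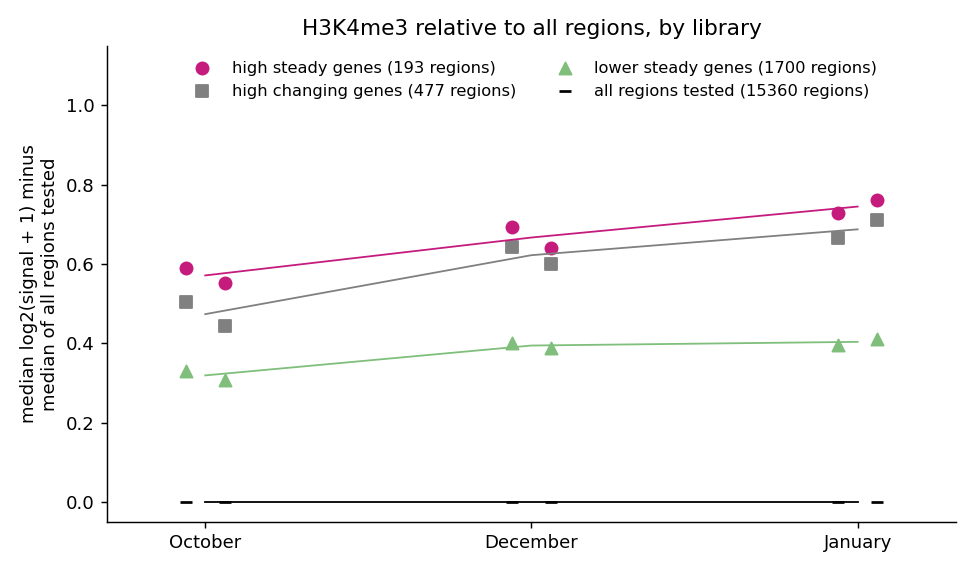
Median of log2(signal + 1) in each H3K4me3 library minus that of all 15360 regions tested, for 3 gene groups. Points are libraries (replicate 2 left, replicate 3 right) and lines join the means of each date; the high steady genes lie at 0.73 to 0.76 in January and at 0.55 to 0.59 in October, and the high changing genes follow a similar course.

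A similar course was seen in the high changing genes, at 0.5 and 0.44 in October, 0.64 and 0.6 in December, and 0.66 and 0.71 in January. The lower steady genes stood at 0.33 and 0.31 in October, 0.4 and 0.39 in December, and 0.4 and 0.41 in January. The difference between the gene groups was not tested.

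The change was small, and most genes lay above the median change of all regions. Between January and October the median log2 change of the 193 genes was 0.2, against 0.05 over all regions, and 172 of the 193 (89.1%) lay above the median of all regions. That share was 77.1% of the high changing genes and 65.5% of the lower steady genes. Between December and October the median was 0.26, against 0.15 over all regions, and 155 (80.3%) lay above the median of all regions. Between January and December it was −0.06, against −0.11 over all regions, and 144 (74.6%) lay above. With library medians aligned this median turned to 0.05, so its sign depended on the scaling. The median change of the high steady genes thus stood 0.16, 0.11 and 0.05 above that of all regions in the 3 comparisons, in the last as a smaller fall in deposited units. The comparisons share libraries and are not independent of each other.

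The level of the signal moved with this change. Regions were split by mean signal into 4 classes of equal size. In the class with the highest signal, 95.3% of the 106 high steady genes and 72.6% of all regions were above the median change of all regions between January and October. In the class below it, the shares were 82.8% of the 64 high steady genes and 61.8% of all regions. In the next class they were 73.7% of 19 and 40.8%, and in the lowest class 4 of 4 high steady genes and 24.8% of all regions. What the signal level contributed to the change at the high steady genes was not tested. With each library taken relative to its median over all regions, both January libraries lay above both October libraries for 147 of the 193 (76.2%), against 35.5% of all regions, and both below for 7 (3.63%), against 33.1% of all regions. In the class of highest signal the share with both January libraries above was 83% for the high steady genes and 58.5% for all regions.

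Few of the single genes passed the test in the deposited scaling. limma with Benjamini-Hochberg adjustment over 15360 regions called 8 of the 193 between January and October, all higher in January, against 15.2% of all regions (5.68% higher and 9.49% lower). Between December and October it called 7, all higher in December, against 7.05% of all regions (4.5% higher and 2.55% lower). Between January and December it called 0, against 1.73% of all regions (0.436% higher and 1.3% lower), and 2 of the 193 had an unadjusted p under 0.05. On the reads recovered from the signal, edgeR called 72 between January and October (16.8% of all regions were called higher and 15.6% lower), 29 between December and October (9.73% and 10%) and 2 between January and December (2.43% and 2.5%). DESeq2 called 87 (20.1% of all regions higher and 21% lower), 47 (14.2% and 15.4%) and 18 (6.31% and 7.32%) in the same comparisons. All edgeR calls were higher at the later date, and those of DESeq2 were 87, 44 and 17 higher and 0, 3 and 1 lower.

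With the library medians aligned, limma called 84 genes between January and October, all higher in January, and this scaling called 18.8% of all regions higher and 17.4% lower. Between December and October it called 40 higher and 1 lower, against 11.8% higher and 11.1% lower over all regions. Between January and December it called 4, all higher in January, against 2.93% higher and 2.94% lower over all regions. The calls of the deposited scaling, 8 and 7, were all among them. Both scalings called changes upward at the later date, with 1 exception, while the number of calls differed.

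Single libraries also set the number of calls in the deposited scaling, over all regions as well as at the high steady genes. Each fit below leaves 1 library at 1 date, and the ranges over all regions are given in the last section. Without October replicate 2 or October replicate 3 the counts were 1 between January and October and 0 between December and October. Without December replicate 2 they were 3 and 1, and without December replicate 3 they were 3 and 0. Without January replicate 2 they were 6 and 119, and without January replicate 3 they were 133 and 117. Between January and December, of these fits only that without January replicate 2 called high steady genes, all lower in January. Most calls over all regions in that fit were lower in January too.

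**Figure D5:**
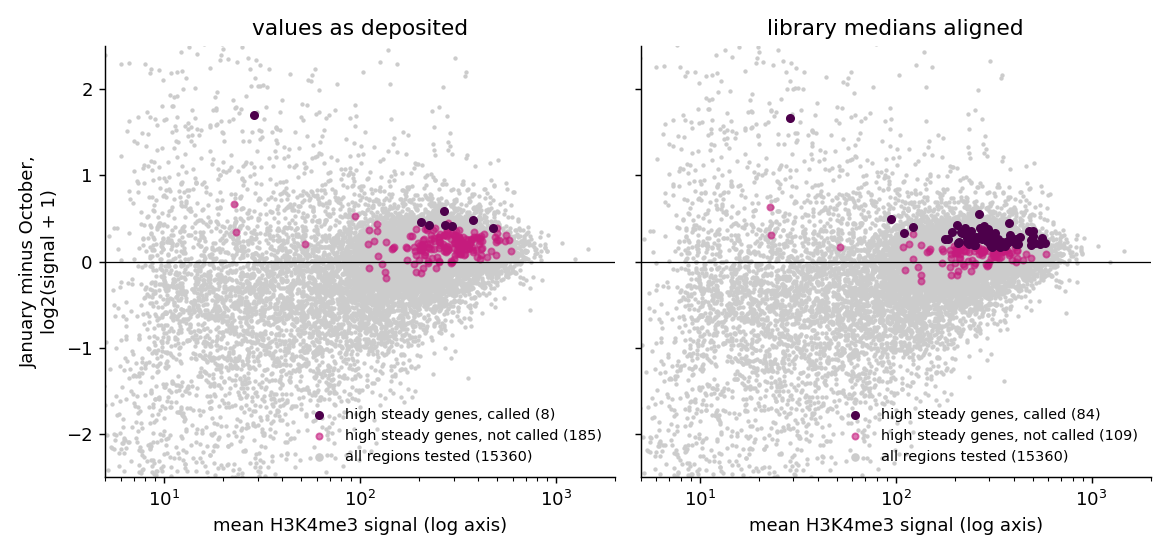
Log2 change of H3K4me3 between January and October (January minus October) against the mean signal (log axis), with values as deposited on the left and library medians aligned on the right. Grey points are all 15360 regions, of which 480 and 487 fall outside the axes, and coloured points are the 193 high steady genes, dark where called; 8 are called on the left and 84 on the right, all higher in January.

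PRUPE_ppa005717mg showed the largest called change. Its region, on the plus strand of scaffold 6 from 6619990 to 6621990, had signals of 52.1 and 35.4 in January, against 11.2 and 14 in October. The December libraries, with 21.4 and 38.4, lay above those of October. Both January libraries lay above both October libraries, and the log2 change was 1.7 ± 0.42 (SE; adjusted p = 0.0104, limma), or 1.65 relative to all regions. The region was among the weakest of the set, while its RNA level was 704, 688 and 686 TPM in October, 567, 654 and 581 TPM in December, and 700.1, 669 and 707 TPM in January. Its locus also overlaps one listed at 0 TPM. Without January replicate 2 the adjusted p of its change was 0.11, and the change was 1.43.

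PRUPE_ppa005266mg, on the minus strand of scaffold 5 with its region from 9960785 to 9962785, had signals of 352 and 287 in January, against 213 and 209.7 in October. The December libraries, at 272 and 274, lay between those of the other dates. The log2 change between January and October was 0.58 ± 0.13 (SE; adjusted p = 0.00685, limma), or 0.54 relative to all regions. It was not called without October replicate 2 (adjusted p = 0.0664, limma) or without October replicate 3 (adjusted p = 0.0833, limma). Its RNA level averaged 232 ± 19.9 TPM in January and 194 ± 4.46 TPM in October (SD, n = 3 each). The other 6 genes called between January and October had log2 changes from 0.39 to 0.48.

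Between December and October, PRUPE_ppa002840mg had signals of 252 and 306 in December, against 188 and 194 in October, at a region on scaffold 8 from 11745559 to 11747559. The log2 change was 0.54 ± 0.16 (SE; adjusted p = 0.047, limma), or 0.39 relative to all regions. This gene had the third smallest range of RNA over the dates, with 175 ± 8.12 TPM in December and 179 ± 6.73 TPM in October (SD, n = 3 each). PRUPE_ppa005252mg, on scaffold 5 with its region from 2327644 to 2329644, had signals of 296 and 318 in December, against 215 and 213 in October. Its log2 change was 0.52 ± 0.14 (SE; adjusted p = 0.0343, limma). For both genes the libraries of December and October did not overlap. Neither was called when an October or a December library was left out, with adjusted p between 0.0533 and 0.401 (limma).

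Between January and December limma called no gene, the largest differences by size included. The largest rise was again at PRUPE_ppa005717mg, with a log2 change of 0.56 ± 0.42 (SE; adjusted p = 0.64, limma), and its January and December libraries overlapped. PRUPE_ppa011438mg had signals of 225 and 233 in January, against 178 and 179.9 in December (log2 change 0.35 ± 0.14, SE; adjusted p = 0.265, limma). Its libraries did not overlap, and DESeq2 called it (adjusted p = 0.00371). The largest fall was at PRUPE_ppa012952mg, which had 21.3 and 24.4 in January, against 25.7 and 35.1 in December (log2 change −0.38 ± 0.46, SE; adjusted p = 0.807, limma). PRUPE_ppa026145mg had 109.7 and 90.9 in January, against 119 and 135 in December (log2 change −0.34 ± 0.18, SE; adjusted p = 0.453, limma). For both genes the January libraries lay below those of December.

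The limit that chose the RNA can be laid on the mark. The range of log2(signal + 1) over the date means was under 0.3 for 114 of the 193 high steady genes (59.1%), 49.1% of the high changing genes, 64.2% of the lower steady genes and 43.5% of all regions. With library medians aligned these shares were 83.9%, 63.5%, 80.2% and 52.6%. In deposited units the signal was lowest in October for 178 of the 193 genes (92.2%) and highest in December for 140 and in January for 49. It was lowest in October for 79.9% of the high changing genes, 71.7% of the lower steady genes and 52% of all regions. Of the 15360 regions, 8174 were highest in December and 2770 in January. With medians aligned it was lowest in October for 151 of the 193 (78.2%), against 42.1% of all regions. It was highest in January for 136 (70.5%), against 35.3% of all regions. For the high steady genes the date of the peak thus depended on the scaling and the date of the low did not.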

How the data were processed

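RNA values are TPM deposited by the authors, 1 table per library, and the H3K4me3 values are a signal deposited by the authors, with TMM scaling per the file headers. For RNA, TopHat and Picard are named in the submitters' processing notes, and FastQC, Trimmomatic, Bowtie2, Picard and DiffBind for chromatin, without versions. No source used here states the genome build, the program that gave TPM or any subtraction of a control. The 6 H3 and 6 input libraries were not analysed here. All H3K4me3 values were whole multiples of the lowest value of their library (100% within 0.01), which gave 14216613 to 28126160 recovered reads per library, and 25.9% to 32.8% of regions stood at that lowest value. If a control had been subtracted, these are what was left.

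The identifier in 671 regions matched a window from 500 bp before to 1500 bp after the gene's start, and the same window joined 23473 of 25635 regions (91.6%) to 1 gene. Tests were two-sided and used limma 3.58.1 in R 4.3.3, with the prior variance following the mean, in 1 fit per assay with date as the factor. RNA entered as log2(TPM + 1) if 3 libraries or more held 1 TPM (18384 genes), and H3K4me3 as log2(signal + 1) if 2 libraries or more reached 10 (15360 regions). P-values were adjusted by the Benjamini-Hochberg method and called under 0.05. edgeR 4.0.16 and DESeq2 1.42.0 on the recovered reads were alternatives. Aligning medians means shifting each library's log2 values to a common median over the features tested. Changes are on the log2(value + 1) scale. The scripts were tested on simulated data.

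The high steady genes, the comparison groups, tests and alternatives were chosen with earlier results of these data known. Genes named are the 8 with the highest mean TPM, the 5 with the smallest range, the 3 on each side of each limit, the 3 with the highest and the 3 with the lowest H3K4me3 signal, the 2 largest called changes per H3K4me3 comparison and direction (by size where none was called) and up to 3 pairs of neighbours; overlapping loci and PRUPE_ppa026145mg, for its spread within dates, were named after their values were seen.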

Additional observations from a re-analysis of the deposited data

How the results depend on the processing

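The number of high steady genes was 389 with a limit of 100 TPM, 141 with 200 TPM and 109 with a range under 0.2. It was within 1.5 times of 227 under the other alternatives for the rule, between 217 and 234 with 1 RNA library left out. With library medians aligned 226 genes met the rule, 210 of them among the 227.

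For RNA, aligning the library medians lowered the counts of called high steady genes. They were 54 (December and October), 31 (January and December) and 41 (January and October). Over all genes the counts were 11387, 6443 and 11423, against 11117, 6056 and 11234 as reported. A fit of the 2 dates alone gave 35 for January and December, and 5558 of all genes. The rule chose the high steady genes on these RNA values, so their counts only describe the set. With 1 library left out the counts were 68 to 95, 32 to 52 and 45 to 72 for the high steady genes, and 9750 to 11381, 4852 to 5852 and 9913 to 11266 for all genes.

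For H3K4me3 the values below are in the order December and October, January and December, January and October. Aligned medians gave 41, 4 and 84 high steady genes and 3523, 901 and 5567 of all regions. edgeR on recovered reads gave 29, 2 and 72, and 3034, 758 and 4983 of all regions. DESeq2 gave 47, 18 and 87, and 4546, 2094 and 6310 of all regions. Without the filter on low values the counts were 0, 0 and 0, and 71, 0 and 741 of all regions. A fit of the 2 dates alone gave 118, 0 and 3, and 5473, 488 and 2311 of all regions. Between December and October a pseudocount of 0.1 gave 1 high steady gene and 795 of all regions, and one of 10 gave 14 and 1589. Between January and December a pseudocount of 0.1 gave 0 high steady genes and 166 of all regions. With 1 library left out the counts were 0 to 119, 0 to 31 and 1 to 133 for the high steady genes, and 228 to 5558, 110 to 3897 and 1412 to 5888 for all regions. The causes of these shifts were not tested.

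The check on deviations from the date means did not show a pairing by replicate number over all dates. Same-numbered libraries correlated at −0.086 to 0.105 for RNA. For H3K4me3 they correlated at 0.529 between December and October, and at −0.0683 between January and October and −0.102 between January and December, 1 value per pair of dates since 2 libraries deviate in mirror image. The fit with a replicate block called 3, 0 and 4 high steady genes and 1159, 542 and 2327 of all regions for H3K4me3. For RNA it called 79, 39 and 58 high steady genes and 10803, 5459 and 10927 of all genes. With the January numbers crossed in the block, a choice made after seeing the data, 1758 regions and 1 high steady gene were called between January and December.

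The direction between January and December depended on the setting. For RNA the calls were 34 higher and 19 lower in January as reported, against 13 higher and 18 lower with medians aligned. Over all genes they were 3397 higher and 2659 lower, against 3137 higher and 3306 lower. The rule chose the high steady genes on these RNA values. For H3K4me3 the median change of the high steady genes was −0.06 as deposited, 0.05 with medians aligned and 0.05 in edgeR. Over all regions these medians were −0.11, −0.0014 and 0.00087. The calls without January replicate 2, with 1 January library left, were all lower in January, as were most calls over all regions. With medians aligned 4 high steady genes were called, all higher, against 2.93% higher and 2.94% lower over all regions. The H3K4me3 changes of the single genes named kept their sign under the alternatives run. The depth behind TPM is unknown. The H3K4me3 tests rest on 2 libraries per date, of 14216613 to 28126160 recovered reads each.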
